A study of Homo sapiens with 10 samples.

Results

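The genes described here are 57 genes of interferon signalling and of the interferon response, read in RS4;11 cells, an acute lymphoblastic leukemia line of B-cell precursors (BCP-ALL) with a KMT2A rearrangement. They were chosen by symbol and matched to the Ensembl gene identifiers of the deposited counts, among 63677 identifiers in all. Of these, 15 code for signalling proteins (receptors, kinases, transcription factors and feedback inhibitors) and 42 are induced genes. Counts were high enough for a test in 54 of the 57, among 16756 tested genes. SOCS3 with 1 read over all libraries, IFI27 and IFI44L were too low for the test.

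The series compares lines with acquired insensitivity to venetoclax (VEN), an inhibitor of the anti-apoptotic protein BCL-2, with sensitive control lines. The 5 VENins lines were raised in parallel from RS4;11 cells under stepwise increasing VEN, and 5 VENsens lines were raised beside them with the solvent DMSO alone. VENins lines were kept under VEN, which was washed off before the cells were analysed, whereas VENsens lines were kept without it. All 10 lines descend from 1 cell line, the labels name no interferon treatment in either arm, and each line gave 1 library of polyadenylated RNA. The p-values therefore measure the spread between lines of 1 origin, grown in 1 experiment.

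Interferons are secreted proteins through which cells warn one another of viral infection. Type I interferons bind the receptor made of IFNAR1 and IFNAR2, and type II interferon binds the receptor made of IFNGR1 and IFNGR2. JAK kinases on the receptors then activate STAT factors, which enter the nucleus and, in the type I response, bind with IRF9 to an interferon-stimulated response element (ISRE), or, in the type II response, bind to a gamma-activated site (GAS). Many induced genes follow, among them enzymes that sense or degrade viral RNA, proteins that block viral entry, and the ubiquitin-like modifier ISG15. Some are also transcribed at a low level without any interferon.

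Libraries held between 20631907 and 28323643 reads counted on genes. Values are given as CPM, reads of a gene scaled to the depth of its library, after TMM normalization, which scales each library by a factor estimated from most of its genes, and levels of different genes are compared only as RPKM, that is per kilobase of exon. The B-lineage markers PAX5, CD79A, EBF1 and CD22 and the KMT2A-associated genes MEIS1, HOXA9 and FLT3 were at 98.1 CPM or more in every library, and PAX5, which maintains B-cell identity, was itself lower in VENins lines (log2 fold change -0.31, adjusted p = 0.0272, edgeR). Its call was lost without line pair 2 (adjusted p = 0.242), pair 3 (0.0597) or pair 5 (0.0647), and its log2 fold change was -0.20 with trends on length and GC removed. CD3D, CD3G, KLRD1, NCR1, FCGR3A, HBB, HBA1, COL1A2 and DCN, which mark T, NK, monocytic, erythroid and connective tissue cells, were at 0 or no more than 0.118 CPM in each library. CD163 and ALAS2 reached at most 0.235 CPM, and CD3E, CD14 and COL1A1 at most 3.34 CPM. NKG7, a granule protein of cytotoxic cells, had 45.1 to 64.2 CPM. Of these markers of other cells, CD3E, CD14, COL1A1 and NKG7 were high enough to be tested, and none of these 4 was called between the groups. VENins_5 stood apart in base composition. Its genes in the GC-rich 25% of all genes lay 0.31 (log2) above those in the GC-poor 25% relative to the mean of all libraries, against -0.15 to 0.13 in the other 9 libraries.

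Without added interferon, the members spanned a wide range of levels per length. In VENsens lines 19 members had 10 RPKM or more, 28 had between 1 and 10 RPKM and 10 had less than 1 RPKM, and in VENins lines these numbers were 21, 25 and 11. IFITM2, a membrane protein that hinders the fusion of viruses with endosomes, was the most abundant with 545 ± 47.1 RPKM in VENsens and 605 ± 58.3 RPKM in VENins lines (mean ± SD, n = 5 each). The next were UBE2L6, the ubiquitin-conjugating enzyme for ISG15, with 50.1 ± 0.487 RPKM, IFI16, a nuclear DNA sensor, with 45.5 ± 1.30 RPKM, and BST2, which tethers budding virions to the cell surface, with 45.3 ± 2.03 RPKM in VENsens lines, and IFI16 and BST2 did not differ beyond their spread. At the lower end stood MX1, an antiviral GTPase, with 0.413 ± 0.068 RPKM, IFIT1, which binds foreign RNA caps, with 0.364 ± 0.054 RPKM, and OASL with 0.202 ± 0.051 RPKM. The interferon genes themselves were nearly silent. The 7 ligand genes on the list of further pathway genes, namely IFNA1, IFNA2, IFNB1, IFNG, IFNL1, IFNE and IFNK, had 3 reads together over the 10 libraries.

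**Figure D1:**
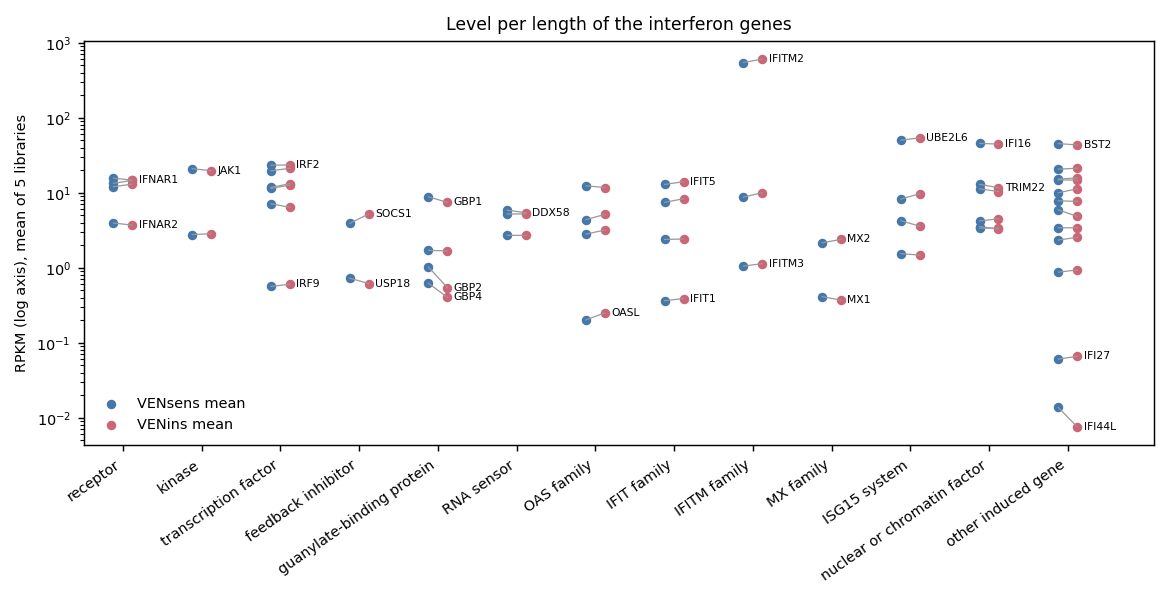
Level per length of the interferon genes by role, in RPKM on a log axis. Each blue point is the mean of the 5 VENsens libraries and each red point that of the 5 VENins libraries, joined by a line for 1 gene. SOCS3, with 1 read in all, is not drawn. IFITM2 stands above all other members at 545 and 605 RPKM, and the level of most genes hardly shifts between the groups.

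Between VENins and VENsens lines 1 of the 54 tested members was called, the guanylate-binding protein gene GBP2, which fell. The call rests on edgeR's quasi-likelihood test, which took the line number as a block, and on a Benjamini-Hochberg adjusted p under 0.05 over all tested genes. By this rule 33 of the 16756 genes were called, which is 0.197%. At an unadjusted p under 0.05 there were 12 of 54 members (22.2%), 5 higher and 7 lower in VENins lines, beside 16.2% of all genes. The 5 libraries of one group lay wholly apart from those of the other in 2 of 54 members (3.70%), beside 4.66% of all genes. Log2 fold changes were within 0.25 of 0 for 48 of 54 members (88.9%) and for 86.9% of all genes. The median log2 fold change was 0.017 over the members and 0.0035 over all genes, with 30 members above 0 and 24 below. It was 0.067 over the 14 signalling members and 0.0074 over the 40 induced ones.

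**Figure D2:**
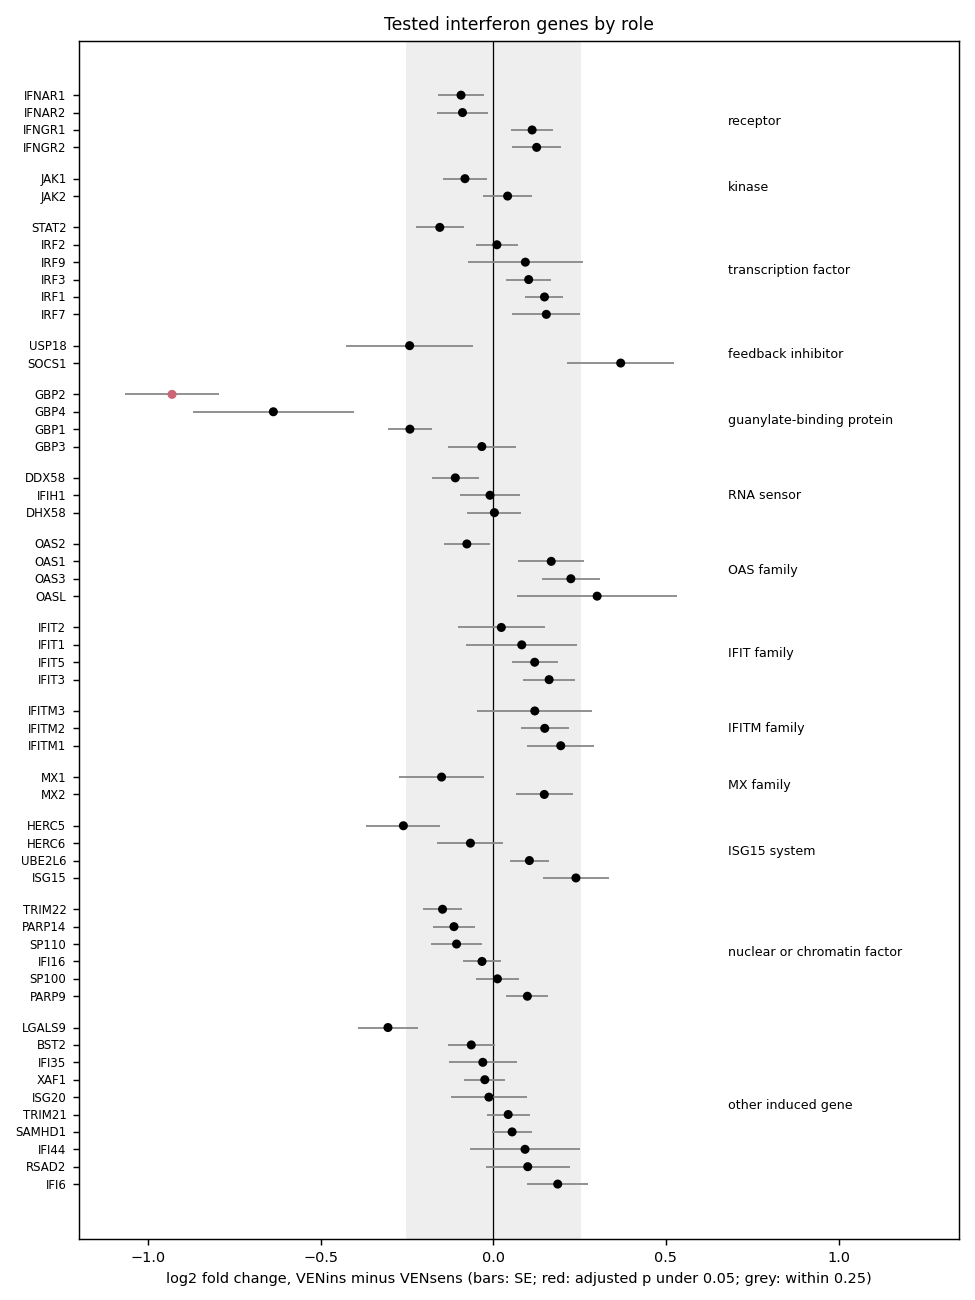
Log2 fold change of each tested member, VENins minus VENsens, grouped by role, with bars of 1 standard error. The red point is GBP2 at -0.93, which passed the adjusted threshold, and the grey band spans 0.25 on either side of 0, where 48 of the 54 members lie.

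The guanylate-binding proteins (GBPs) are large GTPases, strongly induced by type II interferon, that assemble on the vacuoles and membranes of intracellular microbes. GBP1 to GBP4 lie near one another on the minus strand of chromosome 1, and GBP2 (ENSG00000162645) spans chr1:89106132-89150456 in the GRCh38 annotation of GENCODE 29. GBP2 measured 5.74, 6.44, 6.73, 6.59 and 6.62 CPM in VENsens lines 1 to 5 and 2.44, 3.72, 2.81, 4.95 and 3.18 CPM in the VENins lines 1 to 5. Every VENins library was below every VENsens library, with line 4 the highest of the VENins group and line 1 the lowest of either group. GBP2 fell by 47.5%, with a log2 fold change of -0.93 ± 0.14 (SE) and an adjusted p of 0.0117 (edgeR). Against the VENsens line of the same number, VENins lines held between 41.7% (line 3) and 75.1% (line 4) of the GBP2 level. These values rest on 52 to 191 reads per library. The call was lost without line pair 2 (adjusted p = 0.104) and without pair 5 (adjusted p = 0.0563), while the log2 fold change stayed between -1.08 and -0.85 over 13 alternatives, with adjusted p-values from 4.4e-11 to 0.104. In bulk RNA, fewer cells that transcribe GBP2 and less GBP2 RNA per cell cannot be told apart. Of the exon bases of GBP2, 9.89% also belong to GBP7 in GENCODE 29, and GBP7 itself had 2 reads over all libraries.

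GBP1, the best studied member of the family, measured 37.1, 47.7, 42.7, 47.0 and 46.1 CPM in the VENsens lines and 36.2, 36.8, 36.2, 37.4 and 39.3 CPM in the VENins lines. The VENins libraries lay close together. Those of lines 1 to 3 were below every VENsens library, and those of lines 4 and 5 were above VENsens_1 alone. GBP1 had a log2 fold change of -0.24 ± 0.06, with an adjusted p of 0.105 (edgeR), and over its alternatives the adjusted p ran from 0.0215 (DESeq2 without the block) to 0.534. GBP4 measured 2.75, 3.78, 3.17, 4.16 and 5.19 CPM in the VENsens lines and 2.68, 2.78, 2.16, 3.73 and 1.05 CPM in the VENins lines. The groups overlapped, and VENins_5 was the lowest library. The log2 fold change of GBP4 was -0.64 ± 0.23 with an adjusted p of 0.200 (edgeR), on 24 to 130 reads per library, and was -0.30 without line pair 5. GBP3 had 7.35 ± 0.453 CPM in the VENsens lines and 7.20 ± 0.799 CPM in the VENins lines, with a log2 fold change of -0.03 ± 0.10. Without line pair 5 the log2 fold change of GBP3 was 0.040, and without pair 1 it was -0.064. The 4 GBPs thus had log2 fold changes from -0.93 to -0.03 with a median of -0.44, and 1 of 4 passed the test. GBP genes are close paralogs, and a read that fits several of them equally well cannot be assigned. The further family members GBP5, GBP6 and GBP7 had 6 reads together.

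**Figure D3:**
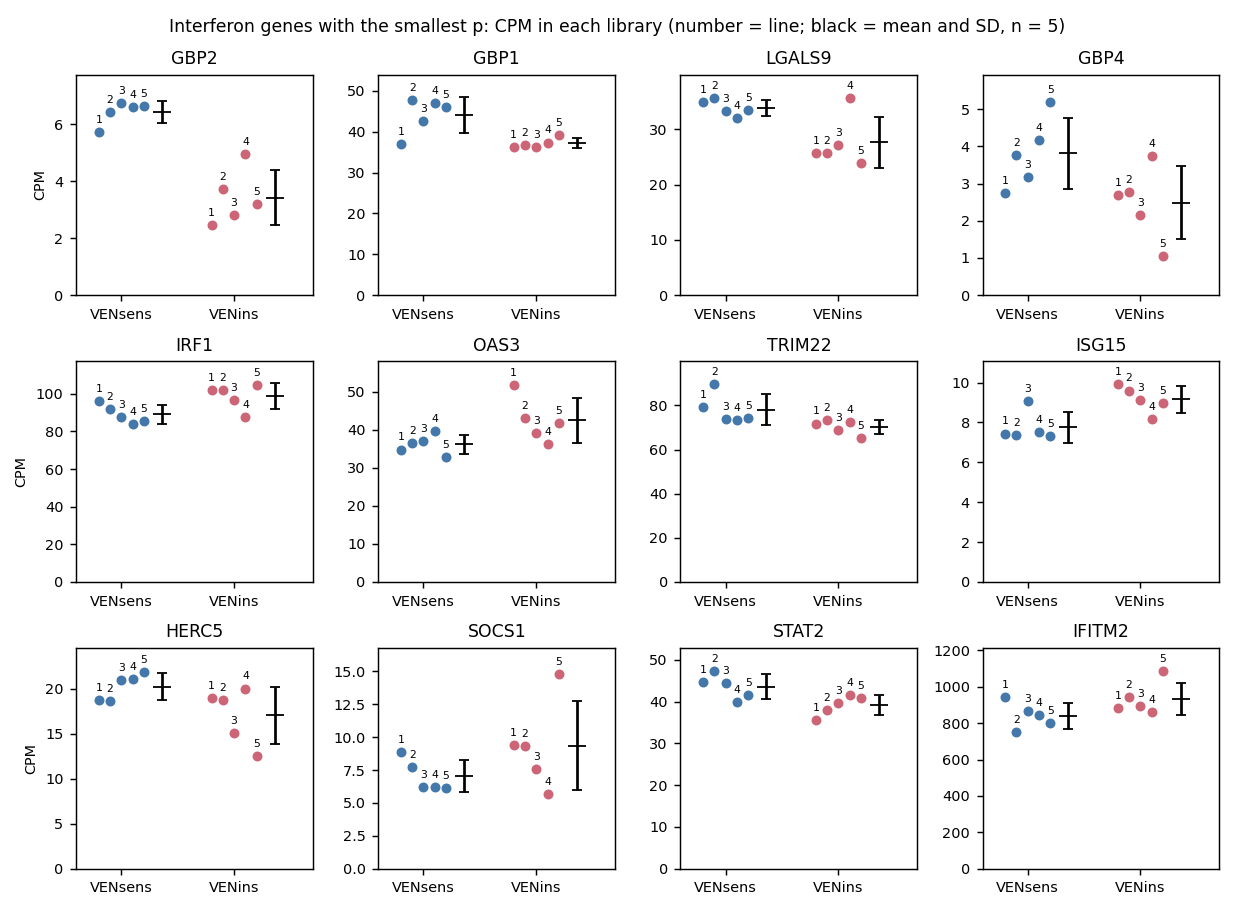
CPM in each library for the 12 members with the smallest p, ordered by p. Blue points are VENsens and red points VENins lines, numbered by line, and black bars give the mean and SD of 5 libraries. For GBP2 all VENins libraries lie below all VENsens libraries. For TRIM22 the groups also do not overlap, though narrowly, and for the other 10 genes they do.

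ISREs were looked for in the promoters of the members, from 250 bases before to 50 bases after the transcription start given by RefSeq (GRCh38.p14). An ISRE was read as GAAA and GAAA with any 2 bases between them and a GAS as TTC and GAA with any 3 bases between them, each searched on both strands. Promoters were found for 44 of the 57 members, 64 promoters in all since some genes have several starts. An ISRE match was present in 28 of 46 promoters of induced members (60.9%) and in 1 of 18 promoters of signalling members, that of SOCS1, beside 3.57% of 35116 promoters of the same length. A GAS match was present in 10 of 46 and 2 of 18, beside 7.66% of all promoters. For genes with several ISRE matches, the one nearest to the start is shown. GBP3 also has a GAS match before its start, which is not shown. These 30-base windows around matches belong to members whose values are given in every library, and to GBP3. GBP2 is not among the 44. They are read 5′ to 3′ on the strand of the gene, with the match in capitals, where TTTC at both ends is the element read from its other strand.
GBP1 ISRE, chr1:89065316-89065345, minus strand: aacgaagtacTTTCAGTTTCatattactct
GBP3 ISRE, chr1:89022845-89022874, minus strand: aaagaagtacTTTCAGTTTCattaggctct
GBP4 ISRE, chr1:89198927-89198956, minus strand: gtgcatgtccTTTCAATTTCggttctcaca
LGALS9 ISRE, chr17:27631169-27631198, plus strand: gttgctttggTTTCTATTTCtttgttaagt
ISG15 ISRE, chr1:1013380-1013409, plus strand: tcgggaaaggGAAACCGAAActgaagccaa
HERC5 ISRE, chr4:88457035-88457064, plus strand: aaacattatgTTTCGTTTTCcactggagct
OAS3 ISRE, chr12:112938452-112938481, plus strand: agccgggcggGAAAACGAAAccagaaatcc
SOCS1 ISRE, chr16:11256298-11256327, minus strand: cgccaccgcgGAAAGAGAAAccaaaagtgg
IRF1 GAS, chr5:132490878-132490907, minus strand: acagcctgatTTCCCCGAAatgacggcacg
The matches in GBP1 and GBP3 have the same 10 letters. They begin 127 bases before the start in GBP1 and at the third base of the transcript in GBP3, as each start is given by RefSeq. The 23 tested members with an ISRE match had a median log2 fold change of 0.08, 13 above and 10 below 0, and the 18 without one had a median of -0.01, 9 above and 9 below. Genes with and without these letters in the window are thus found on both sides of 0. GBP1, GBP4, HERC5 and LGALS9 with negative values and SOCS1, OAS3 and ISG15 with positive values all carry an ISRE match.

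The receptors and kinases at the head of the pathway were present in every library, and none was called. IFNAR1, the receptor chain that recruits the kinase TYK2, had 98.8 ± 7.41 CPM in the VENsens lines and 92.7 ± 8.44 CPM in the VENins lines. IFNAR2, the chain that binds JAK1, had 18.2 ± 1.00 and 17.1 ± 1.06 CPM, but 83.2% of its exon bases also belong to other annotated genes, so its counts are uncertain. IFNGR1, the ligand-binding chain for type II interferon, had 39.5 ± 2.18 and 42.8 ± 4.18 CPM, and its companion chain IFNGR2 had 39.7 ± 2.43 and 43.2 ± 2.88 CPM. The kinase JAK1 had 132 ± 13.3 and 124 ± 5.98 CPM and JAK2 had 17.1 ± 1.42 and 17.6 ± 0.932 CPM. The log2 fold changes of these 6 genes ran from -0.09 to 0.13 with adjusted p-values of 0.377 to 0.832 (edgeR), and both type I chains had negative and both type II chains positive values.

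Among the transcription factors, STAT2, which joins IRF9 in the complex that binds ISREs, measured 44.8, 47.4, 44.3, 39.9 and 41.6 CPM in the VENsens lines and 35.5, 38.0, 39.7, 41.5 and 40.9 CPM in the VENins lines. The groups overlapped, with lines 1 to 3 below every VENsens library and lines 4 and 5 within the VENsens range. Its log2 fold change was -0.16 ± 0.07 with an adjusted p of 0.285 (edgeR). IRF1, an early target of type II interferon and itself an activator of induced genes, measured 96.2, 91.9, 87.8, 83.9 and 85.4 CPM in the VENsens lines and 102, 102, 96.7, 87.9 and 105 CPM in the VENins lines. VENins lines 1, 2, 3 and 5 were above every VENsens library, and VENins_4 lay within the VENsens range. The log2 fold change of IRF1 was 0.15 ± 0.06 with an adjusted p of 0.205 (edgeR), and of its exon bases 22.0% are shared with other annotated genes. IRF1 passed the threshold once trends with length and GC were removed from each library (log2 fold change 0.22, adjusted p = 0.0367, edgeR), and over its alternatives the adjusted p ran from 0.0367 to 0.575.

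The other IRF genes had smaller or more uneven differences. IRF7, which amplifies type I interferon production, had 31.0 ± 3.34 CPM in the VENsens lines and 34.8 ± 7.21 CPM in the VENins lines, where line 5 reached 47.4 CPM and the other 4 lines 29.1 to 32.8 CPM. IRF3, the factor activated directly by nucleic acid sensors, behaved likewise, with 95.1 CPM in VENins_5 and 73.1 to 78.7 CPM in the other VENins lines. IRF2, an antagonist of IRF1, had 72.7 ± 3.64 and 73.3 ± 4.33 CPM. IRF9 was low, with 39 to 67 reads per library, a log2 fold change of 0.09 ± 0.17, which ran from -0.015 (without line pair 2) to 0.21 (without pair 5), and 48.4% of its exon bases shared with another annotated gene.

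The feedback inhibitors SOCS1 and USP18 shut off signalling at the kinases and at IFNAR2. SOCS1 measured 8.90, 7.75, 6.20, 6.24 and 6.10 CPM in the VENsens lines and 9.40, 9.36, 7.57, 5.66 and 14.8 CPM in the VENins lines. VENins_5 was the highest and VENins_4 the lowest of all 10 libraries, so that the VENins range enclosed the VENsens range. For SOCS1 the log2 fold change was 0.37 ± 0.15 with an adjusted p of 0.261 (edgeR). At 69.1% GC, SOCS1 has the highest GC content of the members, and VENins_5 was the library with the highest level of GC-rich genes. USP18, which also removes ISG15 from proteins and has a near-identical copy elsewhere in the genome, had 20 to 45 reads per library and a log2 fold change of -0.24 ± 0.18, which ran from -0.35 to -0.13 when single pairs were left out.

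In the GC-rich 25% of all genes, which holds 10 tested members, VENins_5 had the highest VENins value for 7, namely IRF3, IRF7, SOCS1, IFITM3, UBE2L6, IFI6 and IFI35. In the GC-poor 25%, also with 10 tested members, it had the lowest VENins value for 8. Over all 54 tested members it was the highest of its group for 10 and the lowest for 16. VENins_5 was thus at either end of its group in 48.1% of members, beside 58.0% of all tested genes. With trends on length and GC removed, the log2 fold change was 0.33 for SOCS1, 0.12 for IRF7 and 0.11 for IRF3, against 0.37, 0.15 and 0.10 without that correction. Without line pair 5 it was 0.13 for SOCS1, 0.01 for IRF7 and 0.03 for IRF3.

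**Figure D4:**
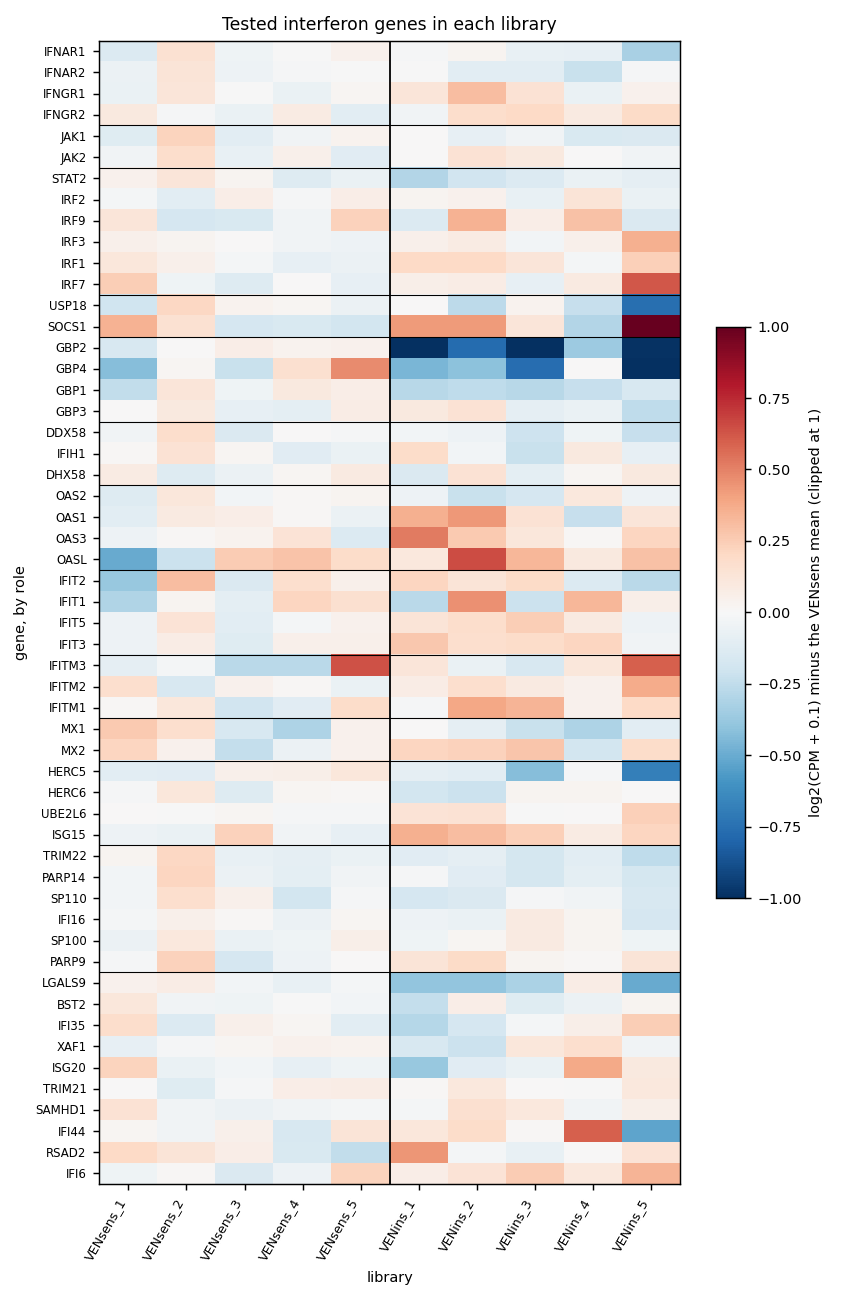
Difference of each library from the VENsens mean in log2(CPM + 0.1), with tested members in rows by role and the 10 libraries in columns, clipped at 1 in either direction. Blue is lower and red higher. GBP2 is blue in all 5 VENins libraries, GBP4 and LGALS9 in VENins_1, 2, 3 and 5, and SOCS1, IRF7 and IRF3 are reddest in VENins_5.

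The sensors of viral RNA differed little. DDX58 (RIG-I), which detects RNA ends, had 25.5 ± 2.08 CPM in the VENsens lines and 23.6 ± 1.60 CPM in the VENins lines. IFIH1 (MDA5), which detects long double-stranded RNA, had 13.8 ± 0.970 and 13.8 ± 1.52 CPM, and DHX58 (LGP2), which tunes the other 2, had 20.0 ± 1.28 and 20.1 ± 1.73 CPM. Their log2 fold changes ran from -0.11 to 0.00, and none was called.

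The OAS enzymes make the 2′-5′ oligoadenylates that switch on RNase L. OAS3 measured 34.8, 36.4, 37.1, 39.6 and 32.8 CPM in the VENsens lines and 51.8, 43.2, 39.1, 36.3 and 41.9 CPM in the VENins lines. VENins_1 was the highest library, and VENins_3 and VENins_4 lay within the VENsens range. OAS3 had a log2 fold change of 0.22 ± 0.08 with an adjusted p of 0.208 (edgeR), and of 0.14 without line pair 1. OAS1 had 13.9 ± 0.783 and 15.8 ± 2.70 CPM, and OAS2 had 77.5 ± 4.84 and 73.6 ± 6.59 CPM. OASL had only 11 to 28 reads per library. Values were above 0 for 3 of 4 OAS genes, and none was called.

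The IFIT proteins, which bind viral RNA, had log2 fold changes from 0.02 for IFIT2 to 0.16 for IFIT3, with 4 of 4 above 0 and adjusted p-values of 0.312 to 0.954. That of IFIT2 was -0.11 without line pair 1 and -0.059 without pair 3, and that of IFIT1 was -0.017 without pair 2. IFIT5, the highest of them per length, had 51.9 ± 3.43 CPM in the VENsens lines and 56.4 ± 4.29 CPM in the VENins lines. The IFITM genes had log2 fold changes of 0.12 to 0.20, with 3 of 3 above 0. That of IFITM1 was 0.11 without line pair 3, and that of IFITM3 was 0.054 without pair 4. IFITM2 measured 943, 750, 865, 847 and 800 CPM in the VENsens lines and 883, 942, 893, 863 and 1085 CPM in the VENins lines. The groups overlapped, since VENsens_1 was above all VENins libraries but that of line 5. IFITM2 had a log2 fold change of 0.15 ± 0.07 with an adjusted p of 0.308 (edgeR), and of 0.076 without line pair 5. IFITM1, IFITM2 and IFITM3 are near-identical, and IFITM1 shares 32.5% of its exon bases with IFITM2, so the split of reads among them is uncertain. IFITM3 had 26 to 55 reads per library, far fewer than IFITM2.

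MX1 and its nuclear-pore relative MX2 had log2 fold changes of -0.15 ± 0.12 and 0.15 ± 0.08, and that of MX2 was 0.052 without line pair 3. The ISG15 conjugation system was also split in direction. ISG15 itself, the modifier, measured 7.44, 7.36, 9.09, 7.54 and 7.30 CPM in the VENsens lines and 9.91, 9.60, 9.11, 8.17 and 8.97 CPM in the VENins lines. The VENins libraries were above 4 of the 5 VENsens libraries, and VENsens_3 lay among them. For ISG15 the log2 fold change was 0.24 ± 0.10 with an adjusted p of 0.237 (edgeR). HERC5, the main ligase that attaches ISG15, measured 18.8, 18.7, 21.0, 21.1 and 21.8 CPM in the VENsens lines and 19.0, 18.8, 15.1, 20.0 and 12.5 CPM in the VENins lines. VENins_3 and VENins_5 were low, and the other 3 VENins libraries lay within the VENsens range. Its log2 fold change was -0.26 ± 0.11 with an adjusted p of 0.252 (edgeR), and it was -0.13 without line pair 5. UBE2L6 had 110 ± 1.07 CPM in the VENsens lines and 119 ± 8.46 CPM in the VENins lines, and HERC6 had 8.96 ± 0.543 and 8.55 ± 0.718 CPM.

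Among the nuclear factors, TRIM22, a ubiquitin ligase that represses viral transcription, measured 79.2, 89.6, 74.0, 73.3 and 74.2 CPM in the VENsens lines and 71.8, 73.2, 69.0, 72.3 and 65.3 CPM in the VENins lines. The groups did not overlap, but the highest VENins library (73.23 CPM) nearly touched the lowest VENsens library (73.30 CPM). For TRIM22 the log2 fold change was -0.15 ± 0.06, with an adjusted p of 0.220 (edgeR). The nuclear body proteins SP100 and SP110, the DNA sensor IFI16 and the ADP-ribosyltransferases PARP9 and PARP14 had log2 fold changes from -0.11 to 0.10, and none was called.

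LGALS9, which codes for galectin-9, a secreted lectin, measured 34.9, 35.6, 33.2, 32.1 and 33.4 CPM in the VENsens lines and 25.7, 25.7, 27.1, 35.6 and 23.8 CPM in the VENins lines. Lines 1, 2, 3 and 5 of the VENins group were below every VENsens library, while VENins_4 was the highest of all 10. LGALS9 had a log2 fold change of -0.31 ± 0.09 with an adjusted p of 0.123 (edgeR). Without line pair 4 it was -0.42 with an adjusted p of 0.00667, and over its alternatives the adjusted p ran from 0.00667 to 0.561. VENins_4 was also the VENins library nearest to the VENsens group for GBP2 and GBP4. The remaining induced genes, IFI6, IFI35, IFI44, ISG20, BST2, XAF1, SAMHD1, TRIM21 and RSAD2, had log2 fold changes from -0.06 to 0.19. IFI27 and IFI44L, well known induced genes, were almost silent in both groups, since IFI27 had 2 to 9 reads and IFI44L 0 to 6 reads per library.

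Of 61 further genes of the pathway, among them other kinases, phosphatases, adaptors and induced genes, 40 were tested and 0 were called with edgeR and the block. At an unadjusted p under 0.05 there were 10 of 40 (25%), with 2 higher and 8 lower in VENins lines, beside 16.2% of all genes with 1306 higher and 1404 lower, and 4 of 40 had groups that did not overlap, beside 4.66% of all genes. Their median log2 fold change was -0.0040. DESeq2 with the block called 2 of them, IRF4 and MAVS, beside 217 of 16756 genes (1.30%), and edgeR without the block called the same 2, beside 149 genes (0.889%). IRF4, a lymphoid factor of the IRF family that acts in B-cell differentiation, had 211 to 221 CPM in the VENsens lines and 175 to 198 CPM in the VENins lines, and its adjusted p was 0.0691 (edgeR) at a log2 fold change of -0.24 ± 0.05. The log2 fold change of IRF4 was -0.22 without line pair 2 (adjusted p = 0.484, edgeR) and -0.17 with trends on length and GC removed. IRF4 was also called without pair 4 and with no filter on low counts. MAVS, the mitochondrial adaptor through which RIG-I and MDA5 signal, had 26.6 to 34.4 and 18.3 to 24.7 CPM, and its adjusted p was 0.0974 (edgeR) at a log2 fold change of -0.38 ± 0.10, or of -0.25 without line pair 2 (adjusted p = 0.502) and -0.26 with trends on length and GC removed. ZC3HAV1, which targets viral RNA for decay, had 132 to 151 and 111 to 128 CPM, and its adjusted p was 0.165 (edgeR) at a log2 fold change of -0.17 ± 0.05, or of -0.089 with trends on length and GC removed. The VENins and VENsens libraries did not overlap for these 3 genes. TAP1, PSMB8, PSMB9 and IKBKE were listed at 0 in all libraries. TAP1, PSMB8 and PSMB9 lie side by side on chromosome 6. Whether RNA of these genes was absent, or their reads were not assigned to the identifiers used, was not tested.

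Taken library by library, the members had nearly the same median in both groups. For each library, the median over the tested members of its difference from the mean of the VENsens libraries was taken. It was -0.00023 ± 0.041 (log2) in VENsens and 0.010 ± 0.035 in VENins lines, between -0.04 and 0.07 in single libraries. The VENsens value lies near 0 because these lines are the reference. The standard deviation of log2 CPM was larger among VENins than among VENsens lines in 37 of 54 members (68.5%) and in 62.2% of all tested genes.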

How the data were processed

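RNA of 10 RS4;11 lines, 5 VENins and 5 VENsens, was sequenced as single-end reads. The authors deposited raw counts of reads per Ensembl gene identifier, 1 file per library, without normalization. The submitters' processing notes name bcl2fastq 2.20.0.422, Bowtie2 2.3.5.1, SAMtools 1.9, HTSeq 0.9.1 and the builds hg19 and GRCh37. The annotation release and the strand setting are not given in the sources used here. Bowtie2 does not split reads over introns, and 52.7% to 54.2% of 38491516 to 52960365 reads per library were counted on genes, while 24.6% to 26.2% had a low alignment quality. Genes near 1 CPM rest on few reads and are less precise.

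Identifiers were named with GENCODE 29, which matched 52526 of 63677, and the unnamed ones held 0.907% of counts. Genes were kept by filterByExpr (minimum count 10, minimum total 15), normalized by TMM and tested in edgeR 4.0.16 (R 4.3.3, limma 3.58.1) with the quasi-likelihood F test, the line number as a block (the study's methods describe a paired analysis) and Benjamini-Hochberg adjustment over all tested genes. Standard errors come from the F statistic. RPKM used the union of exons. DESeq2 1.42.0, scaling and filter alternatives, a length and GC correction (natural splines, 4 degrees of freedom) and each pair left out are given in the closing section. The steps were tested on simulated data.

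Values in every library are given for members with an adjusted p under 0.05 and, up to 12 in all, those with the smallest p and a mean of at least 1 CPM, and group ranges for the 3 further pathway genes with the smallest p. Members, lists and rules were chosen with earlier results of these data known. Tables and plots used pandas 2.3.3 and numpy 2.4.6, and matplotlib 3.10.9, under Python 3.11.15.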

Additional observations from a re-analysis of the deposited data

Results flagged for a closer look

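In 28 groups of 5 values (the 12 members given library by library and the medians of signalling and induced members, in VENsens and in VENins lines) the gap of the farthest library to its neighbour was divided by the range of the group and compared with Dixon's critical value of 0.71. It was larger in 3, where chance gives about 1.4. For GBP2 in VENsens lines the ratio was 0.713, since VENsens_1 had 5.74 CPM and the other 4 lines 6.44 to 6.73 CPM. For LGALS9 in VENins lines it was 0.720, since VENins_4 had 35.6 CPM and the other 4 lines 23.8 to 27.1 CPM. For ISG15 in VENsens lines it was 0.865, since VENsens_3 had 9.09 CPM and the other 4 lines 7.30 to 7.54 CPM.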

How the results depend on the processing

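GBP2 was lower in VENins lines in all 13 alternatives (log2 fold change -1.08 to -0.85, adjusted p 4.4e-11 to 0.104) and was called in 11, losing its call without line pair 2 or 5. The number of members called, 1 in the report, was 3 with DESeq2 and no replicate block (GBP1, GBP2, LGALS9, beside 739 of all genes or 4.41%), 5 with no filter on low counts (SOCS1, GBP1, GBP2, GBP4, LGALS9), 3 with length and GC trends taken out (IRF1, GBP1, GBP2, beside 152 or 0.907%), and 0 (without pair 2 or 5) to 2 (without pair 4) when single pairs were left out. The number at an unadjusted p under 0.05 then ran from 6 (without pair 2, where 8.41% of all genes reached it) to 14 (without pair 1 or 4, 16.8% and 15% of all genes), and was 17 with length and GC trends taken out (18.8%) and 15 with no filter (9.89%). The median log2 fold change was 0.038 with length and GC trends taken out, where that of all genes was 0.019, and 2.5e-05 to 0.055 without single pairs. Same-numbered lines did not deviate together, with correlations between -0.10 and 0.03, so these values give no sign that the numbers pair the samples, although the study's methods describe a paired analysis. Without the replicate block 1 member was called, GBP2 (log2 fold change -0.90, adjusted p = 0.0105), among 149 of all genes against 33 with the paired design. Over all genes 6 were called without pair 2, 9 without pair 5, 331 without pair 4 and 664 of 32884 with no filter. Of 155 values of the 12 members under the alternatives, all kept their direction, 9 passed the threshold anew and 2 no longer did. DESeq2 gave no adjusted p for 5 members with the block and 6 without it. The cause of these shifts was not tested. GBP2 and GBP4 rest on 24 to 191 reads per library.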

Other observations

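SOCS2, an inhibitor of cytokine signalling among the further pathway genes, was singled out after its values were seen. It had 101 to 125 CPM in VENsens lines and 32.3, 37.6, 92.0, 198 and 44.1 CPM in VENins lines 1 to 5, so that VENins_4 was above and the other 4 lines below every VENsens library. The log2 fold change was -0.82 ± 0.27 with an adjusted p of 0.175 in edgeR's test. It was -1.26 without line pair 4 and -0.46 without the replicate block (adjusted p = 0.516), and it was called without pair 4 and with no filter on low counts.

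PTPN2, a phosphatase that acts on JAK kinases, was also chosen after its values were seen. It had 50.1 to 52.5 CPM in VENsens and 53.3 to 63.2 CPM in VENins lines, without overlap, and its adjusted p in edgeR's test was 0.248 at a log2 fold change of 0.14 ± 0.06.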
